A study of Homo sapiens with 12 samples.

Results

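The genes described here are 33 genes of the smooth muscle contractile apparatus, its anchoring proteins and its transcription factors, out of 20037 protein-coding genes. They were looked up by symbol, and all 33 were found. A Notch3 ChIP peak belonged to the protein-coding gene with an end nearest to its summit, up to 100 kb away. Chromatin immunoprecipitation and sequencing (ChIP-seq) with a Notch3 antibody had been done on cells that came, by way of neural crest, from the human embryonic stem cell line H9. The GFP group, labelled neural crest, had received a lentivirus for green fluorescent protein, and the N3ICD group, labelled mural, a lentivirus for the Notch3 intracellular domain with GFP. Both groups were thus transduced, were fixed 6 days later in 1% formaldehyde and were precipitated with the same antibody. Each group had 3 ChIP libraries (A, B, C), and values of a group are given in this order. The series text speaks of 3 independent differentiations of this 1 line. The promoter that drives the transgene was not given in the sources used here.

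Smooth muscle shortens when myosin pulls on thin filaments of actin and tropomyosin. Calcium bound to calmodulin turns on myosin light chain kinase, and a phosphatase turns the signal off again. Most genes of this apparatus are switched on together by serum response factor (SRF) and its partner myocardin, which act at CArG boxes. Notch3 is the Notch receptor best known from vascular smooth muscle and pericytes, the mural cells, where its intracellular domain enters the nucleus and acts with the DNA-binding protein RBPJ. Peaks tell where the antibody captured chromatin, and they do not measure whether a gene was expressed, so the labels mural and neural crest could not be checked against expression here.

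The N3ICD libraries held 2226, 2490 and 3397 peaks and the GFP libraries 1219, 1533 and 1718, called by the authors in each library. The depth of sequencing is unknown. NOTCH3 itself had a peak in all 3 N3ICD libraries and in no GFP library. Most peaks were weak, with a median −log10 q of 0.517 over the 5881 N3ICD peaks that were assigned to a gene.

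Of the 33 smooth muscle genes, 11 had a peak in at least 1 N3ICD library and none had one in a GFP library. The 11 were TPM1, TPM2, CNN1, CALD1, MYLK, PPP1R12A, ACTN1, SMTN, ITGA8, CASQ2 and SRF. They are 33.3% of the list, beside 22.4% of all protein-coding genes with a peak in at least 1 N3ICD library. In GFP libraries 8.02% of all genes had a peak, a share at which a list of this length would hold 2.65 genes. The 22 genes with no assigned peak in any library included ACTA2, TAGLN, MYH11, MYL9, DES and MYOCD. Other markers of smooth muscle, such as CNN1 and SMTN, were among the 11 with one. With 22.4% of all genes having an N3ICD peak, most genes of any kind had none.

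The number of smooth muscle genes with a peak was 3, 3 and 7 in the N3ICD libraries and 0 in all 3 GFP libraries. All 3 N3ICD libraries stood above all 3 GFP libraries, with means of 4.33 ± 2.31 and 0 ± 0 genes (SD, n = 3 each). N3ICD A held peaks at TPM1, MYLK and PPP1R12A, which is 9.09% of the list (95% Wilson interval 3.14% to 23.6%), beside 6.09% of all genes in that library. N3ICD B held peaks at ACTN1, SRF and TPM2, again 9.09%, beside 9.11% of all genes. N3ICD C held peaks at ACTN1, CALD1, CASQ2, CNN1, ITGA8, SMTN and TPM2, which is 21.2% (10.7% to 37.8%) beside 11.4% of all genes. In the GFP libraries 2.42%, 3.37% and 3.26% of all genes had a peak, and 0 of 33 genes allows a share of up to 9.09%, so a share as low as that of all genes could not have been told from 0. The shares in N3ICD A and B lay near those of all genes, and in N3ICD C the lower end of the interval lay just under the share of all genes. These intervals cover counting error only, and no test was made over the list because its genes were chosen with earlier results known.

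**Figure D1:**
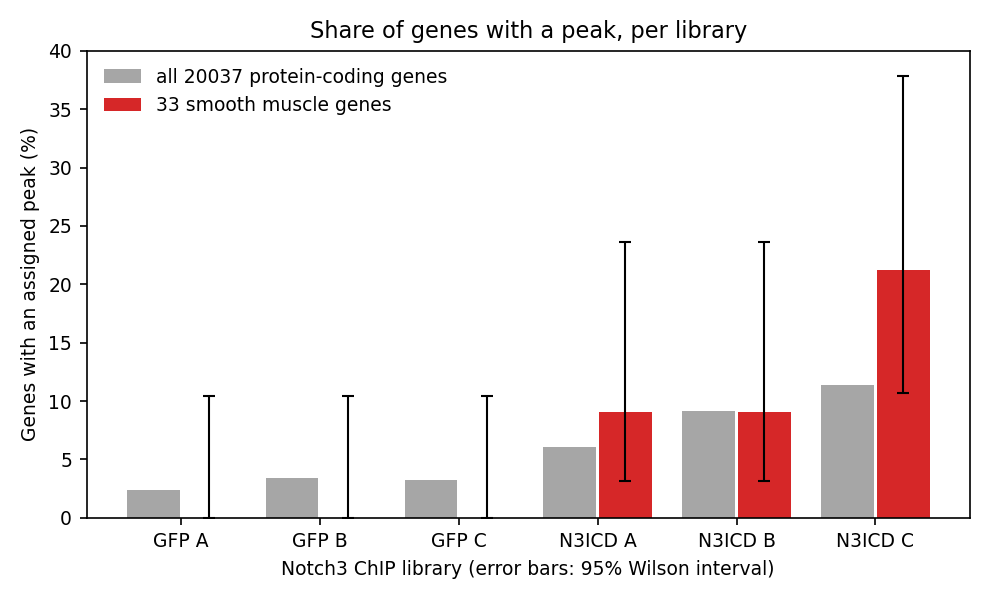
The bars give the percentage of genes with an assigned peak in each Notch3 ChIP library, grey for all 20037 protein-coding genes and red for the 33 smooth muscle genes, with 95% Wilson intervals for the latter. The red bars stand at 9.09%, 9.09% and 21.2% for N3ICD and at 0 in the GFP libraries.

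The genes differ in how much chromosome they can draw peaks from, since neighbours share the space between them. The stretch nearest to each gene, up to 100 kb from an end, had a median of 79.3 kb for the 33 genes and 57.1 kb for all genes. Per Mb of this stretch, the 3 N3ICD libraries together had 4.03 peaks at the smooth muscle genes (13 peaks in 3.22 Mb) and 3.27 at all genes. Taken one by one, the N3ICD libraries had 0.931, 0.931 and 2.17 peaks per Mb at the smooth muscle genes, and 0.735, 1.11 and 1.43 at all genes. The density at the list was thus above that of all genes in N3ICD A and C and below it in N3ICD B. The 3 GFP libraries together had 1.10 peaks per Mb at all genes and 0 at the list.

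**Figure D2:**
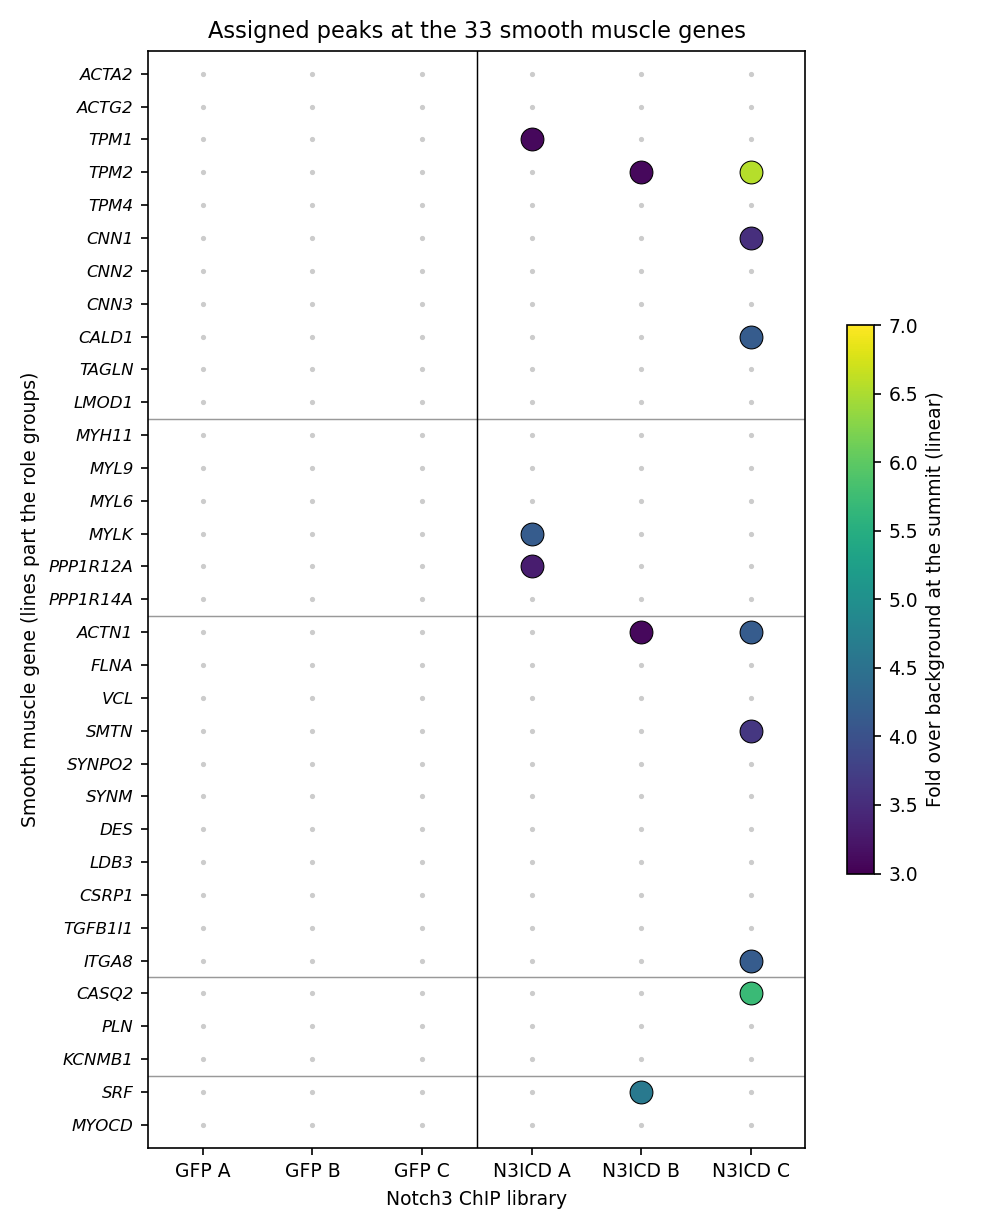
Each row is 1 of the 33 genes and each column 1 Notch3 ChIP library; a filled circle is an assigned peak, coloured by the authors' fold over background, and a grey dot stands for no peak. All 13 peaks lie in N3ICD libraries, and TPM2 and ACTN1 alone have peaks in 2 of them.

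Few of these genes were found again from library to library. TPM2 and ACTN1 had a peak in 2 N3ICD libraries and in no GFP library, which is 6.06% of the list beside 3.12% of all genes. No smooth muscle gene had a peak in at least 2 GFP libraries, as did 0.444% of all genes with none in an N3ICD library. None had more peaks in every N3ICD library than in any GFP library, a pattern shown by 70 of 20037 genes (0.349%) and in reverse by 7 (0.0349%). Peak numbers at each gene were compared between 3 and 3 libraries with a two-sided exact permutation test, adjusted by Benjamini-Hochberg over all 20037 genes. TPM2 and ACTN1 had an exact permutation p of 0.4 and the other 31 genes a p of 1 (each adjusted p = 1). The smallest p this design allows is 0.1, so that 0 genes of the genome passed 0.05 with or without adjustment. Both recurrent genes rest on N3ICD B and C, and without either of these libraries none of the 33 had a peak in both of the remaining N3ICD libraries.

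The 33 genes were sorted into groups by role after values were seen. Thin filament genes held 5 of the 13 peaks, at 4 of their 11 genes, beside the 22.4% of all genes with an N3ICD peak. TPM2 encodes beta-tropomyosin, which lies along actin and is also made in striated muscle (chromosome 9, 35681993 to 35690056, minus strand). Its peak numbers were 0, 1 and 1 with N3ICD and 0 in all 3 GFP libraries, so the groups overlapped at 0. In N3ICD C the peak (35690699 to 35691507) had a summit pileup of 13 stacked fragments. Its fold of 6.55 over background and its −log10 q of 4.87 were the highest of the 13 peaks. In N3ICD B the peak (35691071 to 35691290) had a pileup of 9, a fold of 3.08 and a −log10 q of 0.470. It is weak within its library, where it stands at percentile 8.47 of fold, against percentile 98.4 in N3ICD C. The peaks overlap, with summits 224 bp apart, 1041 and 1265 bp upstream of the annotated start of TPM2 and outside any protein-coding gene. The next gene end, 5851 and 5627 bp from the summits, is that of TLN1, which encodes the adhesion protein talin. This is the one site among the 33 genes that met the rule for an N3ICD-only region, an overlap of peaks from at least 2 N3ICD libraries with none from a GFP library. Such regions went to 0.938% of all genes, and 1 of 33 is 3.03%.

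The other thin filament genes had a single peak each. CNN1 encodes calponin 1, an actin-binding inhibitor of myosin ATPase that marks mature smooth muscle. Its peak in N3ICD C (chromosome 19, 11539980 to 11540221; pileup 9, fold 3.54, −log10 q 0.724) had a summit inside the gene, 1195 bp downstream of the start. TPM1, which encodes alpha-tropomyosin, had one in N3ICD A inside the gene (chromosome 15, 63052921 to 63053264; pileup 6, fold 3.09), with a −log10 q of 0.104, the lowest of the 13. CALD1 encodes caldesmon, which holds actin and myosin back until calcium comes. In N3ICD C its peak lay inside the gene, 35963 bp from the nearer end (chromosome 7, 134934596 to 134934858; pileup 7, fold 4.15, −log10 q 0.828). A second CALD1 site, in N3ICD A, lay inside the gene but 114917 bp from its nearer end (134826272 to 134826491; fold 3.53, −log10 q 0.246), just beyond the 100 kb limit. The peaks just inside that limit were those at MYLK, 85187 bp away, and ITGA8, 69026 bp away. When a gene whose span holds the summit came first, CALD1 thus joined TPM2 and ACTN1 with peaks in 2 N3ICD libraries and no GFP library. These were 3 of the 33 genes, beside 3.24% of all genes under that setting. The remaining 7 thin filament genes had no assigned peak. These were the actins ACTA2 and ACTG2, the tropomyosin TPM4, the calponins CNN2 and CNN3, transgelin (TAGLN), which binds actin, and leiomodin 1 (LMOD1), which starts new filaments.

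Of the myosin genes and their regulators, 2 of 6 had a peak, both in N3ICD A, beside the 22.4% of all genes with an N3ICD peak. MYLK encodes myosin light chain kinase, the switch for contraction (chromosome 3, 123610049 to 123884332). Its peak (123694991 to 123695280) lay deep inside the gene, 85187 bp from the nearer end, with a pileup of 10, a fold of 4.15 and a −log10 q of 0.877. PPP1R12A encodes MYPT1, which brings the phosphatase to myosin. Its peak (chromosome 12, 79934787 to 79935005; pileup 7, fold 3.32, −log10 q 0.246) had a summit 3 bp downstream of the annotated start. The myosin heavy chain MYH11, the light chains MYL9 and MYL6 and the phosphatase inhibitor PPP1R14A had none. MYH11, the most selective of these for smooth muscle, was far from any peak, with the nearest N3ICD summits 1169578, 1744304 and 2944961 bp away.

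Crosslinking, dense body and adhesion genes held 4 peaks at 3 of 11 genes, beside the 22.4% of all genes with an N3ICD peak. ACTN1 encodes alpha-actinin 1, which ties actin filaments to dense bodies and adhesions (chromosome 14, 68874128 to 68979302, minus strand). It had 0, 1 and 1 peaks with N3ICD and 0 in all 3 GFP libraries, so that the groups overlapped at 0. The N3ICD B peak (68979056 to 68979268) had a pileup of 7, a fold of 3.09 and a −log10 q of 0.244, with its summit 171 bp downstream of the start. The N3ICD C peak (68953043 to 68953359) had a pileup of 7, a fold of 4.15 and a −log10 q of 0.828, 26031 bp into the gene. With summits 25860 bp apart, ACTN1 is a gene with peaks in 2 libraries but without a shared site. SMTN encodes smoothelin, a protein of contractile smooth muscle, and had a peak inside the gene in N3ICD C (chromosome 22, 31086431 to 31086732; pileup 6, fold 3.64, −log10 q 0.427). ITGA8, a matrix receptor subunit of mesenchymal and smooth muscle cells, had one in N3ICD C, 69026 bp past its far end (chromosome 10, 15444627 to 15444987; fold 4.15). That summit lay outside any protein-coding gene, and the next gene end, that of FAM171A1, was almost as near, at 70374 bp. Filamin A (FLNA), vinculin (VCL), the intermediate filament proteins desmin (DES) and synemin (SYNM), the actin-associated SYNPO2 and LDB3, and the LIM proteins CSRP1 and TGFB1I1 had no assigned peak.

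Among the 3 genes of calcium stores and channels, CASQ2 had a peak, beside the 22.4% of all genes with an N3ICD peak. PLN, the brake on the store's calcium pump, and KCNMB1, a subunit of a calcium-activated potassium channel, had none. CASQ2 encodes calsequestrin 2, which holds calcium in the store of cardiac and some smooth muscle. Its peak in N3ICD C (chromosome 1, 115710891 to 115711444) lay inside the gene, 11302 bp from its nearer end, with a pileup of 10, a fold of 5.71 and a −log10 q of 2.98. Within N3ICD C this fold stood at percentile 96.6. Of the transcription factors, SRF had a peak and MYOCD, its smooth muscle coactivator, none. The SRF peak in N3ICD B (chromosome 6, 43171289 to 43171877) had the highest pileup of the 13, 14 stacked fragments, with a fold of 4.62 and a −log10 q of 2.34. Its summit lay 198 bp downstream of the start, inside the gene.

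At the usual limit of a −log10 q of at least 1.3, peaks remained at 3 of the 33 genes, TPM2, CASQ2 and SRF, beside 4.44% of all genes in at least 1 N3ICD library. Each of these peaks came from 1 library, so the list then had no gene with peaks in 2. The 13 peaks had a median fold of 4.15 (3.08 to 6.55) and a median pileup of 7 fragments (6 to 14), beside a median fold of 3.64 and pileup of 8 over all assigned N3ICD peaks. Summits within 1 kb of a gene end made up 3 of the 13 (ACTN1, PPP1R12A and SRF), or 23.1%, beside 29.5% of all assigned N3ICD peaks; 7.8% of all genes had such a peak in at least 1 N3ICD library, and 9.09% of the list did. Inside the gene lay 10 of the 13, or 76.9%, beside 52.5%. These belonged to 9 genes, 27.3% of the list, beside 12.7% of all genes. The shares were not adjusted for gene length, and the median span was 30.2 kb for the list and 24.1 kb for all genes. The 7 peaks of N3ICD C included none within 1 kb of an end, where 34.5% of all assigned peaks of that library lay.

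**Figure D3:**
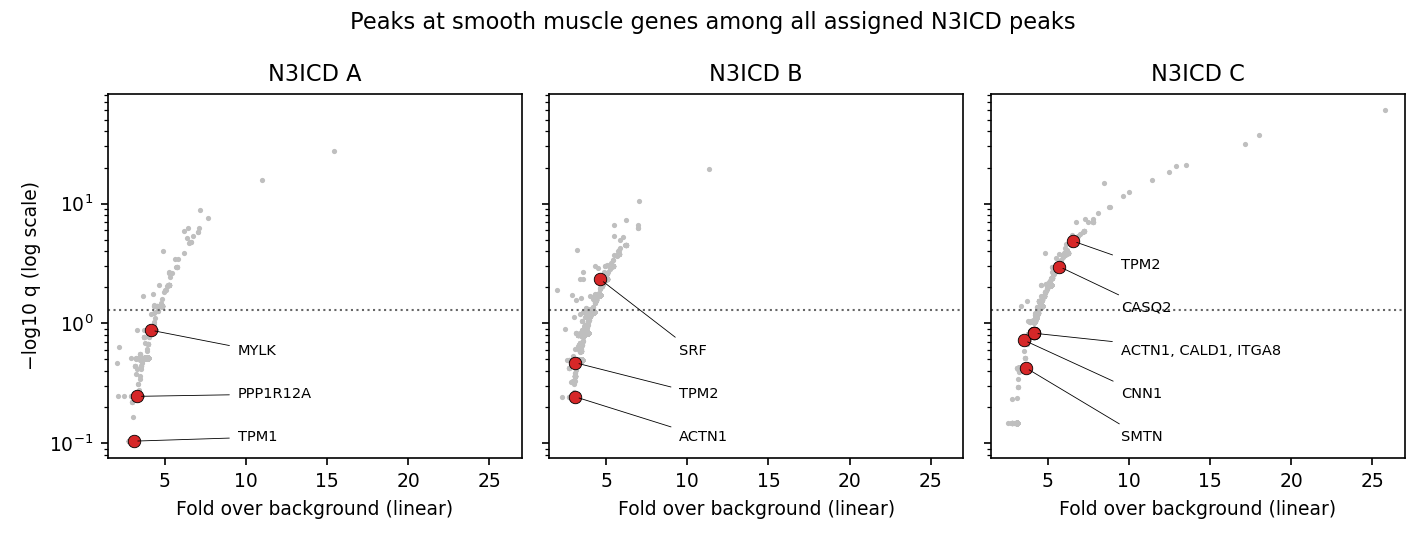
Each panel is 1 N3ICD library, with fold over background on the x axis and −log10 q on a log y axis; grey points are all assigned peaks, red points those at smooth muscle genes, and the dotted line marks a −log10 q of 1.3. TPM2 and CASQ2 in N3ICD C and SRF in N3ICD B lie above the line, and the other 10 peaks lie below it.

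Sequences of the annotated promoters are shown where a peak overlapped the window from 250 bases before to 50 bases after the start, and for TPM2, whose region lies just upstream. Peaks overlapped this window at 3 of the 28 smooth muscle genes in the table, by 30 bases at SRF in N3ICD B, 16 bases at ACTN1 in N3ICD B and 104 bases at PPP1R12A in N3ICD A. Library by library these were 1, 2 and 0 of the 28 in N3ICD A, B and C. Over all 15843 promoters the share overlapped was 0.802%, 1.80% and 2.99% in these libraries. In a GFP library it was at most 0.0379%, with 0 of the 28. A share of all promoters over the N3ICD libraries together was not computed. The sequences are RefSeq's on GRCh38.p14, written 5′ to 3′ on the strand of the gene: SRF at chr6:43171019-43171318 (plus strand), ACTN1 at chr14:68979253-68979552 (minus strand), PPP1R12A at chr12:79934902-79935201 (minus strand) and TPM2 at chr9:35690007-35690306 (minus strand). Capitals mark a CArG box, the site read by SRF, or TGGGAA on either strand (TTCCCA when read on the gene's own strand), the core read by RBPJ.
SRF: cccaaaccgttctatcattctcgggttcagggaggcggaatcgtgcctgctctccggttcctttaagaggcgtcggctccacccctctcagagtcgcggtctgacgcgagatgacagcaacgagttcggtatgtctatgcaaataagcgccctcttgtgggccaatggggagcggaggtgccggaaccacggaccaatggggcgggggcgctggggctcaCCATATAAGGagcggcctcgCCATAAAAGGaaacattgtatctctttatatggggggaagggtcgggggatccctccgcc
ACTN1: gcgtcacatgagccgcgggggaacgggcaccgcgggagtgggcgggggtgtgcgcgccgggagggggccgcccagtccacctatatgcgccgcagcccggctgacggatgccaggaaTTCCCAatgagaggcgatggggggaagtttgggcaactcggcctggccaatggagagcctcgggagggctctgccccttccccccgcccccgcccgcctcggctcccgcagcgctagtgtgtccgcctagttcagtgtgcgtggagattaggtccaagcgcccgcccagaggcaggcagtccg
PPP1R12A: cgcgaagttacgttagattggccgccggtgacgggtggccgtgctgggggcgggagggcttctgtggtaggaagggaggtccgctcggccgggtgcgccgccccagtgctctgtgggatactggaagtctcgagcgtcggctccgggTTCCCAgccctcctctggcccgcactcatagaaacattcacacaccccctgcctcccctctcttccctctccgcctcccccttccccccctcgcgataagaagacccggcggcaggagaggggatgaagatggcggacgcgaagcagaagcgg
TPM2: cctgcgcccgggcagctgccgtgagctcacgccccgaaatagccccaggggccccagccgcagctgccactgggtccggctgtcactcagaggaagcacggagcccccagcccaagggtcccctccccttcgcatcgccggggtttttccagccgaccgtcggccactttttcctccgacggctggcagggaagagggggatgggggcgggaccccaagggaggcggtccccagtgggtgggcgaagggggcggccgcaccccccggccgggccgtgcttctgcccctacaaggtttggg

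SRF held 2 CArG boxes, which begin 30 and 10 bases before its start, and no match to the RBPJ core. A match lay in ACTN1 133 bases before its start and in PPP1R12A 103 bases before. The TPM2 window held neither, and GC made up 72.3% of it. No peak of any library overlapped a CArG or RBPJ match in the 28 windows. The sequence below the TPM2 region itself was not analysed here.

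**Figure D4:**
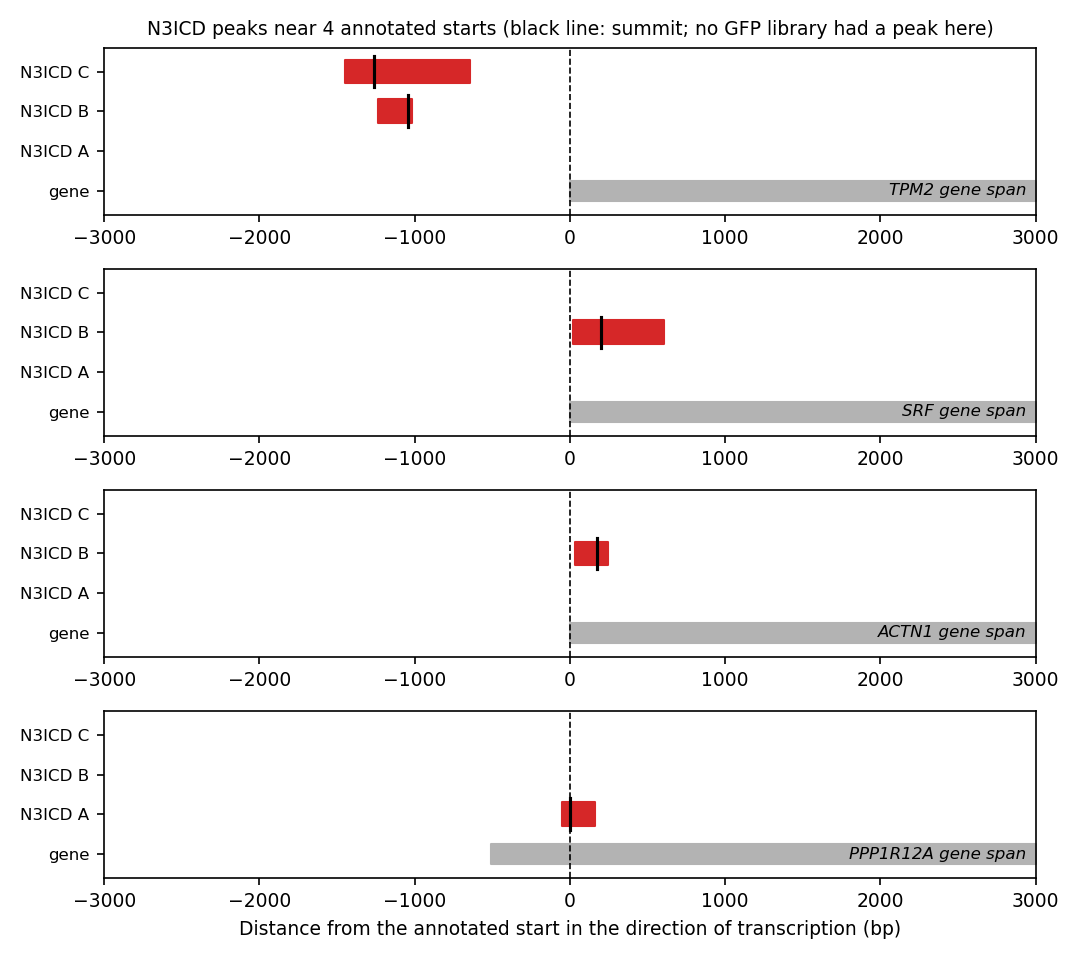
Each panel shows 1 gene, with the distance from the annotated start in bp, counted in the direction of transcription; grey is the gene span, red bars are N3ICD peaks, and black lines their summits. The 2 TPM2 peaks overlap upstream of the start, whereas SRF, ACTN1 and PPP1R12A have 1 peak each at or just after it.

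Across the 28 promoters of the list, CArG boxes were in 7 (ACTG2, CNN2, FLNA, LDB3, MYLK, SRF and TPM4), or 25%, beside 1.21% of all 15843 promoters. The promoter table gave a single start per gene, which at MYLK, CALD1, TPM1, LDB3 and PPP1R12A lay inside the gene span. At MYLK (minus strand, 123610049 to 123884332) this start, 123620548, lay near the 3′ end. Its CArG box is thus not at the 5′ end of the gene. TGGGAA was in 4 (ACTN1, KCNMB1, PLN and PPP1R12A), or 14.3%, beside 22.7% of all promoters. The longer GTGGGAA, which contains it, was in KCNMB1 alone, or 3.57%, beside 5.99%. The E-box CANNTG was in 64.3% beside 64.5%. Both strands were searched, and no test was made. DES, MYH11, MYL9, MYOCD and TAGLN were not in the promoter table.

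All 33 genes, with or without an assigned peak, were then placed relative to the nearest peak of each library, whatever gene that peak belonged to. The median distance over the 33 genes was 426, 173 and 103 kb with N3ICD and 1870, 1250 and 2030 kb with GFP. Over all genes it was 478, 247 and 188 kb and 1760, 1070 and 1280 kb, in the same order. A summit within 50 kb was found for 6, 7 and 7 smooth muscle genes in the N3ICD libraries, which is 18.2%, 21.2% and 21.2%, beside 11.2%, 20.2% and 24.2% of all genes. For ACTA2, the alpha-actin of smooth muscle, the nearest N3ICD summits were 300148, 293692 and 710011 bp away. At MYOCD they were 905949, 1182706 and 1291630 bp away, and the nearest summit of all was in GFP B, at 92529 bp.

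**Figure D5:**
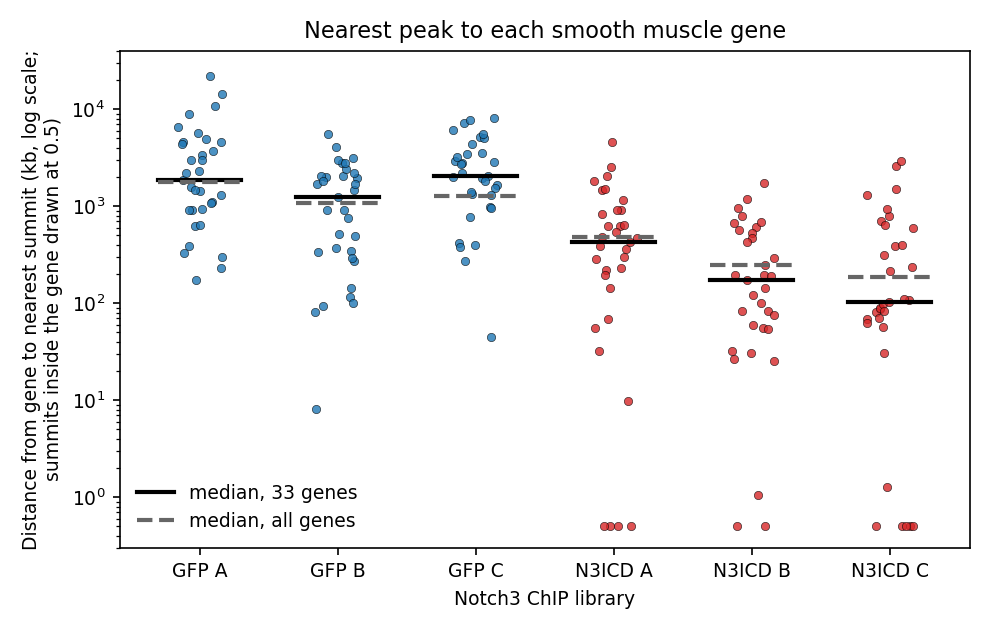
Each point is 1 smooth muscle gene, placed by the distance to the nearest summit in that library in kb on a log axis, with summits inside the gene drawn at 0.5; solid lines are medians of the 33 genes and dashed lines medians of all genes. The medians of the 33 genes are 426, 173 and 103 kb for N3ICD and 1250 to 2030 kb in the GFP libraries.

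An N3ICD-only region lay within 100 kb of 4 of the 33 genes, whatever gene it belonged to, which is 12.1% beside 3.87% of all genes. Besides TPM2 these were DES, CSRP1 and TAGLN, where the region belonged to a neighbour. DES had one 30587 bp away (chromosome 2, 219387614 to 219387895), with folds of 4.01 in N3ICD B and 5.19 in N3ICD C and −log10 q of 1.3 and 2.11. The nearest gene end to it was that of DNPEP, an aminopeptidase gene, 12217 bp away. CSRP1 had one 32245 bp away (chromosome 1, 201538953 to 201539405), 241 bp from the end of NAV1. Its folds were 3.46 in N3ICD A and 4.47 in N3ICD B, with −log10 q of 0.246 and 1.71. TAGLN had one 54796 bp away (chromosome 11, 117144316 to 117144627), 211 bp from the end of PAFAH1B2. Its folds were 4.37 in N3ICD A and 3.70 in N3ICD B, with −log10 q of 1.02 and 0.945, both under 1.3. No GFP-only region, the mirror class, lay within 100 kb of the 33 genes, where 0.0349% of all genes had one, and none was assigned to them, as one was to 0.02% of all genes. When every gene within 50 kb of a summit was counted, a setting chosen after seeing the data, 6 of the 33 (ACTN1, CNN1, CSRP1, DES, MYLK and TPM2) had peaks in 2 N3ICD libraries and no GFP library, or 18.2% beside 9.38% of all genes. By the nearest annotated start, CSRP1 joined TPM2 and ACTN1, which made 3 of the 33 genes beside 2.74% of all genes. A GFP summit of any library lay within 50 kb of 2 of the 33 genes, or 6.06% beside 11.9% of all genes, and an N3ICD summit within 50 kb of 13, or 39.4% beside 43%. Those 2 GFP peaks were one in GFP B 8140 bp from CALD1 (fold 3.63) and one in GFP C 44532 bp from PLN (fold 3.14).

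Other genes of muscle were examined with lists chosen beside the 33. Of 24 transcription factors and cofactors of muscle genes, 10 (41.7%) had an N3ICD peak and 4 a GFP peak, beside the 22.4% and 8.02% of all genes. MEF2D, MEF2A, TEAD1 and MRTFA had peaks in 2 N3ICD libraries and no GFP library, or 16.7% beside the 3.12% of all genes. MEF2D, a muscle transcription factor gene, had overlapping peaks by its end in N3ICD A (chromosome 1, 156500921 to 156501222; fold 3.53) and N3ICD C (156500913 to 156501452; fold 3.54), with −log10 q of 0.246 and 0.724. MRTFA encodes a coactivator of SRF that responds to actin, and its peaks in N3ICD A (fold 4.33) and N3ICD B (fold 3.39) lay inside the gene at different sites. MEF2A and TEAD1 likewise had 1 peak each in N3ICD B and C, with folds of 3.10 to 4.24 and no shared site. The genes of this list had long stretches, with a median of 129 kb beside 57.1 kb for all genes. Per Mb they had 4.24 N3ICD peaks and 1.70 GFP peaks, both above the 3.27 and 1.10 of all genes.

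Of 40 other actin, myosin and focal adhesion genes 17 (42.5%) had an N3ICD peak, beside the 22.4% of all genes, but in no case did peaks in 2 N3ICD libraries come without a GFP peak, as they did at 3.12% of all genes. Their median stretch was 73.1 kb, with 4.61 N3ICD and 1.00 GFP peaks per Mb. Of 19 genes of calcium handling and ion channels 6 (31.6%) had one, beside 22.4%. Their stretches were long, with a median of 187 kb, and per Mb they had fewer N3ICD peaks than all genes (2.20 beside 3.27) and more GFP peaks (1.38 beside 1.10). CACNA1C and JPH2 had peaks in N3ICD A and B and in no GFP library, or 10.5% beside 3.12% of all genes. JPH2 encodes junctophilin 2, which holds the calcium store to the membrane, and its summits lay 79 bp inside and 389 bp outside the same gene end (folds 4.28 and 2.96). CACNA1C, the L-type calcium channel, had summits at opposite ends of the gene (folds 3.53 and 3.26). Genes of striated muscle, examined for contrast, had no peak at all. Over the N3ICD libraries together, 0 of 28 had one, beside the 22.4% of all genes. In each of the 6 libraries it was also 0 of 28, beside the 2.42% to 11.4% of all genes. A count of 0 of 28 allows a share of up to 10.7%. The striated muscle genes had a median stretch of 40.2 kb, less than the 57.1 kb of all genes.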

How the data were processed

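Peak lists of 6 Notch3 ChIP libraries were analysed. No peak list was available for the 6 libraries of input chromatin, which were not used here. The submitters' processing notes name MACS3 3.0.0a7, Bowtie2 2.2.1, deepTools 3.5.1, bedtools 2.30.0, SAMtools 1.11 and build hg38, with no options or controls. The labels' protocols state enzymatic digestion, which cuts open chromatin more readily. The authors called peaks in each library. The deposited fold is a ratio of ChIP pileup to background at the summit, the deposited −log10 p and −log10 q come from the authors' peak caller, the deposited signal is the summit pileup, and the deposited score was not used. The lowest −log10 p was 3.3, a lenient limit. Position and fold were equal in both deposited forms for all 12583 peaks. The depth is unknown.

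Positions are 1-based on hg38. Gene spans and promoters came from RefSeq tables on GRCh38.p14, without exons, so that exons and UTRs are not stated. Each summit went to the nearest gene end within 100 kb. Peaks overlapping by at least 1 bp formed 12268 regions. Peak numbers per gene were compared by two-sided exact permutation over 20 splits. Libraries are not tied by their labels to single cultures, so p-values measure the spread between these libraries. The members and lists, and the rule for named genes (every member, and list genes with peaks in 2 libraries of 1 group and none of the other), were chosen with earlier results of these data known; role groups were made after values were seen. One of the gene lists is not reported here. ORAI1, of the calcium list, is not listed as protein-coding in the gene table and was left out. The procedure was tested on simulated data. Software was Python 3.11.15 with SciPy 1.17.1, pandas 2.3.3, matplotlib 3.10.9, numpy 2.4.6. Alternatives covered distance, q, peak number, assignment, overlap and left-out libraries.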

Additional observations from a re-analysis of the deposited data

How the results depend on the processing

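The difference in smooth muscle genes with a peak, 4.33 in the mean (N3ICD minus GFP), was above 0 under every setting run, as was that of all genes. It was 2 with gene ends within 10 kb (6.06% of the list beside 4.29% of all genes), 1 at a −log10 q of at least 1.3 (3.03% beside 1.46%), 1.67 with the 1219 most significant peaks of each library (5.05% beside 1.76%), and 3 to 5 with one library left out. Genes with peaks in at least 2 N3ICD libraries and no GFP library, 2 in the report, numbered 1 within 10 kb (all genes 1.47%), 0 with that q limit (0.27%), 0 with equal numbers of peaks (1.01%), 6 when every gene within 50 kb counted, chosen after seeing the data (9.38%), and 0 to 2 with one library left out, with 0 without N3ICD B (1.05%) or C (0.953%). A list of 33 genes at 1.05% or less would hold under 1 gene, so those counts of 0 do not set it apart from all genes. Genes with peaks in at least 2 N3ICD libraries and no GFP library numbered 3 with the gene span first (all genes 3.24%). By nearest start they also numbered 3 (2.74%). Genes with an N3ICD-only region, 1 in the report, came to 0 with equal numbers of peaks (0.459%), 0 with the same q limit (0.19%), 2 by nearest start (0.833%), 3 with every gene within 50 kb (2.52%) and 0 to 1 with one library left out. Stricter settings admit fewer peaks by construction. Genes with more peaks in every N3ICD than in any GFP library numbered 0, and 2 without N3ICD A (1.82%), as 2 libraries are then enough; leaving out one library gave 0 to 2. With the replicate letter as a block the count was also 0 (smallest sign-flip permutation p 0.25, exact). Same-letter deviations across genes correlated at −0.0238, 0.00111 and −0.0147, and those of unlike letters at −0.00557 to 0.0221. Most genes had no peak in a given library, so these values could not show whether the letters pair libraries.

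Single genes were not stable. Of 143 values for the 11 genes with a peak, 33 fell to 0 and 7 were lower but above 0. The q limit left 8 of the 11 genes without a difference, all but TPM2, CASQ2 and SRF. Gene ends within 10 kb left 6 at 0 (CALD1, CASQ2, ITGA8, MYLK, SMTN and TPM1), equal numbers of peaks 6 (ACTN1, CNN1, ITGA8, PPP1R12A, SMTN and TPM1), 50 kb 2 (ITGA8 and MYLK), and nearest start and every gene within 50 kb 1 each (ITGA8). Leaving out N3ICD A, B or C left 3, 1 and 5 at 0. TPM2 stayed above 0 in every setting, at 0.333 peaks per library in place of 0.667 with the q limit and with equal numbers. Pileups of 6 to 14 fragments limit every peak named.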

Other observations

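KLF4, which encodes a factor known to hold smooth muscle genes down, was the one gene of the muscle transcription list with peaks in at least 2 GFP libraries and no N3ICD library. It had 1 peak in each of GFP A, B and C and none with N3ICD, at 3 different sites 72813, 33442 and 13708 bp from the gene (folds 3.38, 3.40 and 4.16; −log10 q 0.457, 0.226 and 1.20). The exact permutation p was 0.1, the smallest possible, with an adjusted p of 1, and 7 of 20037 genes showed this pattern. TRPC1, a cation channel gene of the calcium list, had peaks in GFP A and C (folds 2.82 and 3.8) and none with N3ICD. These peaks had −log10 q of 0.159 and 0.697 and lay at different sites, 223 and 28071 bp from an end of the gene. Peaks in at least 2 GFP libraries and no N3ICD library were found at 0.444% of all genes.

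Markers of mural, neural crest, endothelial and pluripotent cells were also counted. Of 11 mural markers 8 had an N3ICD peak and 1 a GFP peak, and MCAM, NOTCH3 and PDGFRB had peaks in at least 2 N3ICD libraries and no GFP library (27.3%). Of 11 neural crest markers 6 had an N3ICD peak and 2 a GFP peak, with ETS1 alone in 2 N3ICD libraries and no GFP library (9.09%). Of 7 endothelial markers 1 had an N3ICD peak and 1 a GFP peak, and of 6 pluripotency markers 1 had an N3ICD peak and 0 a GFP peak. Over all genes the shares were 22.4% with an N3ICD peak, 8.02% with a GFP peak and 3.12% with peaks in at least 2 N3ICD libraries and no GFP library. The median stretch was 71.5, 152, 170 and 86.9 kb for mural, neural crest, endothelial and pluripotency markers, beside 57.1 kb for all genes. Per Mb they had 18, 4.24, 0.801 and 1.69 N3ICD peaks, beside 3.27, and 1, 1.21, 0.801 and 0 GFP peaks, beside 1.10. The mural list includes NOTCH3, the gene of the antibody's target and of the transgene.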
